A study of Mus musculus with 6 samples.

Results

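The genes described here break down the branched-chain amino acids leucine, isoleucine and valine. They are 10 genes (Bcat2, Bckdha, Bckdhb, Dbt, Bckdk, Ppm1k, Ivd, Mccc1, Hibch and Acadsb) of the 33641 gene symbols in the expression table, taken by symbol, and they hold 60 of its 105129 transcript rows. Poly-A selected, stranded RNA-seq libraries of quadriceps muscle were compared between 3 mice homozygous for the rs6190 allele (+/+) and 3 WT mice (reference allele +/+). The allele is a mouse version of a human variant of Nr3c1, the glucocorticoid receptor gene. All 6 mice were males aged 4 months, littermates bred from heterozygous parents, with tissue taken at about ZT4 (4 hours after lights on). The labels give no strain and no tissue-restricted driver, and they do not say whether replicates of a genotype came from different litters, so p-values measure the spread between these libraries only.

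Skeletal muscle is a main site where branched-chain amino acids lose their amino group, because liver has little of the mitochondrial aminotransferase encoded by Bcat2. The resulting keto acids are then committed to oxidation by the branched-chain alpha-keto acid dehydrogenase complex, whose activity is set by a kinase (Bckdk) that inhibits it and a phosphatase (Ppm1k) that restores it. After that step the 3 amino acids follow separate branches to acetyl-CoA, propionyl-CoA or acetoacetate, and glucocorticoids are known to act on muscle amino acid breakdown in part through the transcription factor Klf15.

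Values are TPM (an abundance divided by transcript length and scaled to the same total in every library), which carries no sequencing depth, so the depth behind each value is unknown here. The 6 muscle markers checked (Acta1, Ckm, Des, Ttn, Neb and Mb) were present in every library. WT replicate 3 stood apart: its log2(TPM + 1) values correlated with the other libraries at r of 0.951 to 0.965 across genes, against 0.972 to 0.987 among the others. The 11 slow-fibre markers summed to 1685, 9158 and 2007 TPM in homozygous replicates 1 to 3 and to 1581, 1021 and 207 TPM in WT replicates 1 to 3. The 12 fast-fibre markers took 26.4% of all TPM in WT replicate 3 and 10.8% to 14.9% elsewhere, and mitochondrially encoded transcripts took 14.3% there and 20.9% to 33.9% elsewhere. Of the fast-fibre markers, Myh1 and Myh2 were lowest in WT replicate 3, and all others were highest there. Myh1 measured 1183, 1253 and 942 TPM in homozygous against 464, 315 and 239 TPM in WT muscle. Myh2 measured 593, 728 and 478 TPM against 361, 272 and 122 TPM, so the groups were apart in both. The 5 Schwann cell markers summed to 75.2, 103 and 28.2 TPM in homozygous against 18.2, 24.9 and 15.7 TPM in WT muscle, and the 7 immune markers to 28.2 to 39.6 and 8.36 to 39.5 TPM, with Cd79a at 0 in homozygous replicate 2. Endothelial markers summed to 35.9 to 43.1 TPM in homozygous and 27.8 to 38.9 TPM in WT libraries, fibroblast markers to 151 to 181 and 78.0 to 217 TPM, adipocyte markers to 149 to 187 and 157 to 179 TPM, blood markers to 536 to 781 and 476 to 851 TPM, and satellite cell markers to 1.09 to 1.44 and 0.904 to 1.65 TPM. Fabp4 made up most of the adipocyte sum, at 140 to 181 TPM. Other adipocyte markers varied more, with Cfd at 4.20, 3.78 and 17.5 TPM in homozygous against 4.43, 13.3 and 10.4 TPM in WT muscle. Adipoq measured 0.847, 0.684 and 2.81 TPM against 0.679, 1.42 and 1.45 TPM. The part of these differences in the results below was not tested beyond the fits named beside each result, and in bulk tissue fewer cells of a type and less RNA per cell cannot be told apart. Nr3c1 itself measured 20.01, 19.7 and 19.5 TPM in homozygous against 11.5, 14.8 and 8.07 TPM in WT muscle, a level that cannot tell the alleles apart.

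No gene of the pathway passed the test for a genotype difference. In limma on log2(TPM + 1), 0 of the 10 genes had a Benjamini-Hochberg adjusted p under 0.05, where 0% of the 11099 genes tested did. At an unadjusted p under 0.05 there were 2, Ivd and Acadsb, both higher in homozygous muscle, against 23.7% of all genes tested. In 2 genes, Hibch and Acadsb, every homozygous library was above every WT library, against 34.7% of all genes, and none of the 10 showed the opposite order, against 0.73% of all genes. All 10 genes were at 1 TPM or more in every library, so none entered through 1 group alone.

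Most log2 fold changes (homozygous minus WT) were above 0, but so were most in the whole table. That held for 8 of the 10 genes, against 85.8% of all genes tested. The median over the 10 genes was 0.29 and the median over all genes was 0.26, and 5 of the 10 lay above that all-gene median. After median centring the split was 5 above and 5 below 0, and after quantile normalization 6 and 4. The lowest of the 6 libraries was WT replicate 3 for 6 of the 10 genes, and the highest was a homozygous library for 7.

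**Figure D1:**
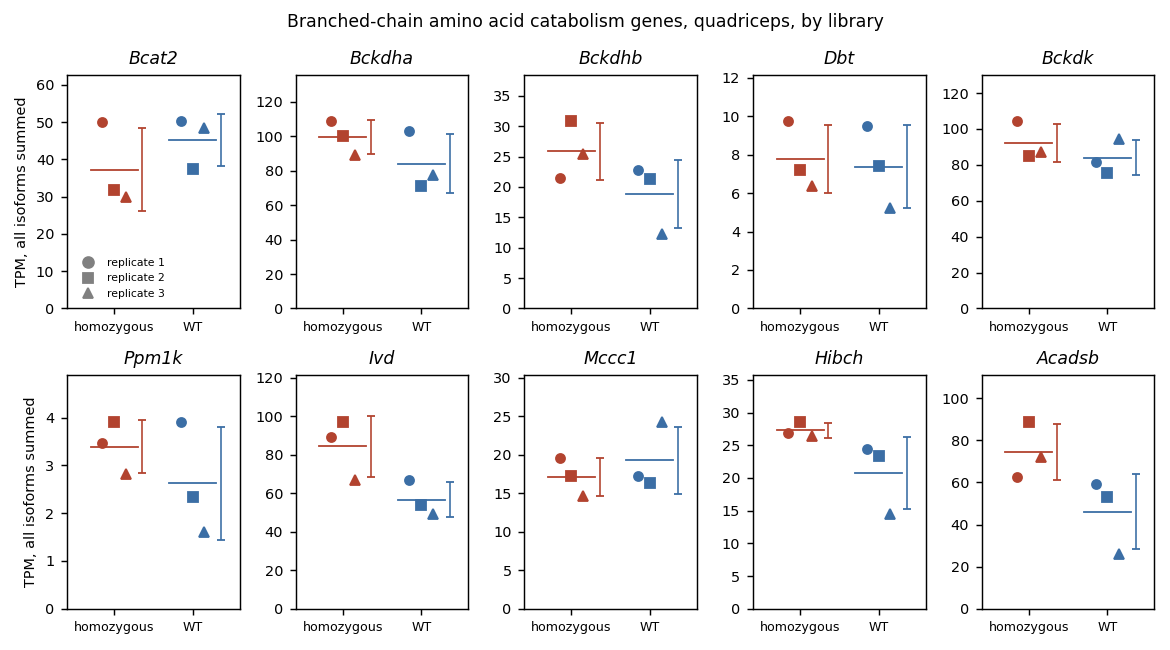
Abundance of the 10 genes by library. The vertical axis is TPM with all isoforms of a gene summed, starting at 0; points are libraries (shape gives the replicate number), horizontal lines are group means and bars beside them are SDs (n = 3). The groups are apart in Hibch and Acadsb, and WT replicate 3 (blue triangle) is the lowest library in 6 of the 10 panels.

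Bcat2 (chr7:45570153-45589711, plus strand, GRCm38) encodes the mitochondrial aminotransferase that takes the amino group from all 3 amino acids. Its abundance was 50.1, 31.9 and 29.8 TPM in homozygous replicates 1 to 3 against 50.2, 37.3 and 48.4 TPM in WT replicates 1 to 3. The groups overlapped, with replicate 1 of both genotypes at nearly the same level and homozygous replicates 2 and 3 the lowest. Homozygous mice averaged 37.3 ± 11.2 TPM and WT mice 45.3 ± 6.97 TPM (mean ± SD, 3 libraries each). The difference in log2(TPM + 1) was -0.30 (SE 0.22), or -0.57 relative to the all-gene median, with an adjusted p of 0.377 in limma. It was -0.53 without homozygous replicate 1, -0.16 without homozygous replicate 3 and -0.13 with the slow-fibre score (the mean log2 value of the slow-fibre markers) as a covariate. That score was 5.9, 8.2 and 6.2 in homozygous against 5.8, 5.3 and 3.0 in WT replicates 1 to 3. Every homozygous score was thus above every WT score, so values with this covariate cannot separate fibre type from genotype, here or below. In the fit of all libraries without it, the Bcat2 difference was the lowest value of the 10 genes.

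Among the Bcat2 isoforms the groups were apart in 2, both lower in homozygous muscle, an order that 2.11% of all isoforms tested had. Bcat2-201 and Bcat2-202 are both protein coding and differ inside the coding sequence by 15 bases, which Bcat2-201 holds and Bcat2-202 lacks. The sequences below, from the GENCODE M21 transcripts, show the place of that difference in a stretch that starts at chr7:45584998 on the plus strand (GRCm38), to chr7:45585140 in Bcat2-201 and chr7:45585155 in Bcat2-202, each span including an intron. Capitals mark bases that are not in the exons of the other isoform.
Bcat2-201: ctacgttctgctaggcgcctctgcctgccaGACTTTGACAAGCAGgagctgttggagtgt
Bcat2-202: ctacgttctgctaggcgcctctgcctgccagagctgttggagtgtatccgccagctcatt

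The longer form, Bcat2-201, measured 35.0, 17.3 and 19.4 TPM in homozygous against 31.0, 18.4 and 13.2 TPM in WT muscle, so the groups overlapped fully. The shorter form, Bcat2-202, measured 10.7, 10.5 and 5.80 TPM against 11.0, 13.8 and 23.5 TPM. Every homozygous library was thus below every WT library in Bcat2-202, by a small margin between homozygous replicate 1 and WT replicate 1. Its log2 fold change was -0.75 (SE 0.34, limma adjusted p 0.337 over 21165 isoforms). It was -0.45 without WT replicate 3, -0.49 without homozygous replicate 3 and -0.43 with the slow-fibre covariate.

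Bcat2-204, annotated as a target of nonsense-mediated decay, measured 1.82, 1.06 and 1.17 TPM in homozygous against 1.95, 4.62 and 6.18 TPM in WT muscle. The groups did not overlap here either, and the WT values spread over a wider range than the homozygous ones. On the log2 scale the groups differed by -1.08 (SE 0.36, limma adjusted p 0.287), -0.81 without WT replicate 3 and -0.52 with the slow-fibre covariate. Bcat2-208, a protein-coding form, was listed at 0 in 3 libraries and at most 3.18 TPM, with overlapping groups. Protein-coding rows together made up 85.4% to 94.96% of Bcat2 TPM.

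The dehydrogenase complex is built from the decarboxylase subunits E1 alpha (Bckdha) and E1 beta (Bckdhb) and the transacylase core E2 (Dbt). Bckdha (chr7:25629946-25658981, minus strand) was the most abundant of the 10 genes, at 109, 100.3 and 89.2 TPM in homozygous against 103, 71.0 and 77.6 TPM in WT muscle. Its groups overlapped through WT replicate 1, which was the second highest library. Homozygous mice averaged 99.4 ± 9.75 TPM and WT mice 84.0 ± 17.1 TPM (mean ± SD, 3 libraries each). This gave a log2 difference of 0.25 (SE 0.17), with a limma adjusted p of 0.347, which is the size of the all-gene median (-0.01 relative to it), and it was -0.05 after median centring. It was 0.41 without WT replicate 1, 0.14 without WT replicate 2 and 0.15 with the slow-fibre covariate. Nearly all of it came from Bckdha-201, the single isoform of the gene with a mean of 1 TPM or more.

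Bckdhb (chr9:83925145-84124240, plus strand) measured 21.4, 30.8 and 25.4 TPM in homozygous against 22.7, 21.4 and 12.3 TPM in WT muscle. Homozygous replicate 1 and WT replicates 1 and 2 lay close together, and WT replicate 3 was the lowest library. Homozygous mice averaged 25.9 ± 4.72 TPM and WT mice 18.8 ± 5.65 TPM (mean ± SD, 3 libraries each). In limma its log2 fold change was 0.47 (SE 0.24, adjusted p 0.252), 0.21 without WT replicate 3 and -0.06 with the slow-fibre covariate.

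The main Bckdhb isoform, Bckdhb-206, measured 17.6, 15.1 and 13.3 TPM in homozygous against 15.4, 11.2 and 7.17 TPM in WT muscle. Its groups overlapped through WT replicate 1. Bckdhb-201, with an annotated coding sequence of 966 bases against 1170 in Bckdhb-206, was at 2.12, 0.18 and 6.21 TPM in homozygous muscle and at or near 0 in all WT libraries, and it did not reach the filter of 1 TPM in 3 libraries, so no test was made of it. Bckdhb-205 and the non-coding Bckdhb-203 overlapped between groups, at 1.63 to 6.99 and 0.0216 to 8.03 TPM over the 6 libraries. Bckdhb-204, a non-coding form, was listed at 0 in 5 libraries and at 4.51 TPM in WT replicate 2. With protein-coding rows only, a sum added after seeing the data, Bckdhb was at 21.4, 22.2 and 22.0 TPM against 20.9, 13.8 and 10.9 TPM. The groups then no longer overlapped, by a small margin between homozygous replicate 1 and WT replicate 1. With all isoforms summed, 34.7% of all genes tested had this order. The log2 fold change of the coding sum was 0.55 (SE 0.22, limma adjusted p 0.183).

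Dbt (chr3:116513070-116549981, plus strand) measured 9.73, 7.22 and 6.34 TPM in homozygous against 9.50, 7.41 and 5.20 TPM in WT muscle. The groups covered almost the same range, with replicate 1 highest and replicate 3 lowest in both. The fitted log2 difference was 0.08 (SE 0.23, 95% interval -0.45 to 0.62, limma adjusted p 0.824), and its sign changed with the scaling, to -0.23 after quantile normalization. Dbt-201 was its one isoform with a mean of 1 TPM or more, at 4.84 to 8.91 TPM over the 6 libraries.

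The kinase and the phosphatase act against each other on the E1 alpha subunit. Bckdk (chr7:127904082-127910221, plus strand), the inhibiting kinase, measured 104, 85.0 and 87.2 TPM in homozygous against 81.6, 75.5 and 94.6 TPM in WT muscle. WT replicate 3 was the second highest library, so the groups overlapped. Homozygous mice averaged 92.1 ± 10.5 TPM and WT mice 83.9 ± 9.74 TPM (mean ± SD, 3 libraries each). The log2 fold change was 0.13 (SE 0.14, limma adjusted p 0.544), below the all-gene median by 0.13, and it was -0.06 after quantile normalization and -0.17 after median centring. It was 0.32 with the slow-fibre covariate, 0.04 without homozygous replicate 1, 0.06 without WT replicate 2 and 0.22 without WT replicate 3.

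Among Bckdk isoforms with a mean of 1 TPM or more in either group, the groups were apart in Bckdk-203, which is annotated as a retained intron and keeps 79 bases of introns of Bckdk-201. The sequences below, from the GENCODE M21 transcripts, show where it reads on into the intron, starting at chr7:127905261 on the plus strand (GRCm38) and ending at chr7:127905399 in Bckdk-201 (a span including the intron) and chr7:127905320 in Bckdk-203. Capitals mark bases that are not in the exons of the other isoform.
Bckdk-201: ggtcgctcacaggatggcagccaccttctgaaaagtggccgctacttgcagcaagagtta
Bckdk-203: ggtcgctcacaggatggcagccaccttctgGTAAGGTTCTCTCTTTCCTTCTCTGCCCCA

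Bckdk-203 measured 6.82, 5.55 and 9.68 TPM in the homozygous libraries. In the WT libraries it was near 0, 4.21 and 0.532 TPM, so all homozygous values were above all WT values. Its log2 fold change was 2.03 (SE 0.60, limma adjusted p 0.274), the largest size among the 29 isoform rows of these genes that were tested. In the WT group only replicate 2 reached 1 TPM, so the row passed the filter through the homozygous group. The log2 fold change was 1.53 without WT replicate 1, 2.72 without WT replicate 2 and 3.48 with a pseudocount of 0.1. With the slow-fibre covariate it was 2.10. The coding isoforms Bckdk-201 and Bckdk-202 overlapped between groups, at 15.8 to 23.2 TPM and 40.0 to 64.2 TPM over the 6 libraries. Bckdk-205, a protein-coding row of 724 bases, held 34.5 TPM in WT replicate 3 and at most 6.51 TPM in any other library, and it was listed at 0 in both replicates numbered 2. Bckdk-204 was listed at 0 in 3 libraries and reached 3.05 TPM in homozygous replicate 1.

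Ppm1k (chr6:57506502-57535468, minus strand), the activating phosphatase, was the least abundant of the 10 genes. It measured 3.47, 3.90 and 2.81 TPM in homozygous against 3.92, 2.34 and 1.61 TPM in WT muscle. WT replicate 1 was the highest library of all and WT replicate 3 the lowest. On the log2 scale the groups differed by 0.32 (SE 0.25, limma adjusted p 0.406), 0.57 without WT replicate 1, 0.11 without WT replicate 3 and -0.10 with the slow-fibre covariate. Ppm1k-201, its one isoform with a mean of 1 TPM or more, measured 1.07 to 3.14 TPM over the 6 libraries.

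Ratios between genes of the same library do not depend on how that library was scaled. The tested differences of log2(TPM + 1) do in part, because of the 1 added to low values. The kinase was 30.01, 21.8 and 31.0 times as abundant as the phosphatase in homozygous against 20.8, 32.2 and 58.7 times in WT muscle. The WT libraries held both the lowest and the highest ratio. In WT replicate 3, which had the highest, the short row Bckdk-205 held 36.5% of Bckdk TPM and Ppm1k was at 1.61 TPM. On the log2(TPM + 1) scale the difference was 4.41 ± 0.24 and 4.59 ± 0.57 (SD, n = 3 each; exact permutation test, two-sided, p = 0.9, adjusted over 3 comparisons 0.9). The smallest p this design can give is 0.1. The group difference was -0.19, and it turned to 0.11 without WT replicate 3. It was -0.21 with mitochondrial transcripts left out and -0.30 with a pseudocount of 0.1.

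The E1 subunits were unequal in abundance in every library, with Bckdha 3.25 to 5.07 times Bckdhb in homozygous against 3.32 to 6.29 times in WT muscle. The log2 difference was 1.91 ± 0.33 and 2.13 ± 0.44 (SD, n = 3 each; exact permutation test, two-sided, p = 0.6, adjusted 0.9), and the group difference of -0.22 became 0.00027 without WT replicate 3. Bcat2 minus the mean of the 3 complex genes was 0.78, 0.14 and 0.25 in homozygous against 0.79, 0.69 and 1.40 in WT muscle on the log2(TPM + 1) scale. Homozygous replicate 1 lay within the WT range and the other homozygous libraries lay below it. The group means differed by -0.57 (exact permutation test, two-sided, p = 0.2, adjusted 0.6), by -0.35 without WT replicate 3 and by -0.11 with the slow-fibre covariate.

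**Figure D2:**
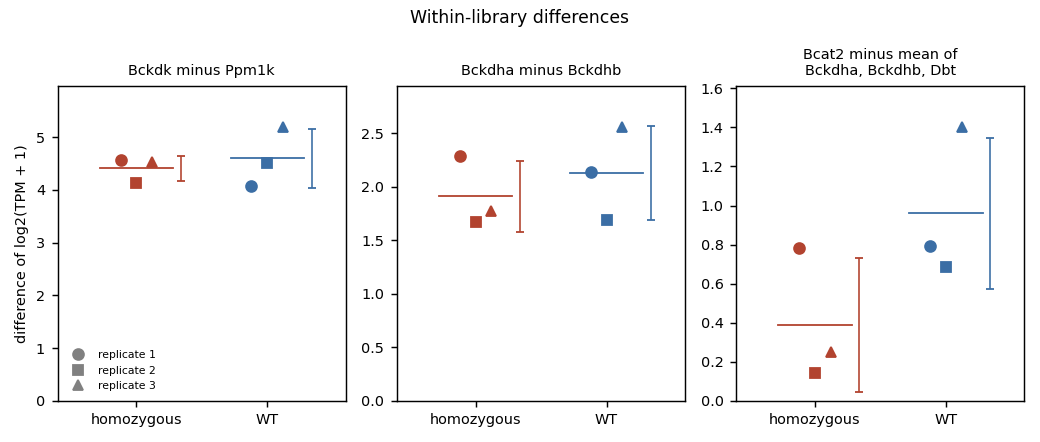
Differences between genes within each library. The vertical axis is a difference of log2(TPM + 1) values, starting at 0; points are libraries (shape gives the replicate number), lines are group means and bars are SDs (n = 3). WT replicate 3 is the highest library in all 3 panels, and the groups overlap in each.

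In the leucine branch, Ivd encodes isovaleryl-CoA dehydrogenase, the first enzyme after the complex, and Mccc1 the biotin-carrying subunit of the next enzyme, methylcrotonyl-CoA carboxylase. Ivd (chr2:118861954-118882909, plus strand) measured 89.3, 97.2 and 66.7 TPM in homozygous against 67.0, 53.8 and 49.4 TPM in WT muscle. The lowest homozygous and the highest WT library were nearly equal and crossed, and the other libraries were apart. Homozygous mice averaged 84.4 ± 15.8 TPM and WT mice 56.8 ± 9.18 TPM (mean ± SD, 3 libraries each). This gave a log2 difference of 0.56 (SE 0.18), or 0.29 above the all-gene median, with an unadjusted p of 0.0157 and an adjusted p of 0.169 in limma. It was 0.47 without WT replicate 3, 0.30 with the slow-fibre covariate and 0.20 with protein-coding isoforms alone.

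The difference between the group means of Ivd lay mostly in isoforms annotated as non-coding. Ivd-201 is the gene's single protein-coding row, and Ivd-205 and Ivd-206 are short processed transcripts of 266 and 606 bases that share coding exons with it. The sequences below, from the GENCODE M21 transcripts, show where each departs from Ivd-201 on the plus strand of chromosome 2 (GRCm38). They run from chr2:118871518 to chr2:118872914 in Ivd-201, from chr2:118871518 to chr2:118872211 in Ivd-205 and from chr2:118872378 to chr2:118872914 in Ivd-206, each span including an intron. Capitals mark, in Ivd-201, bases not in the exons of Ivd-205 and, in the other rows, bases not in the exons of Ivd-201.
Ivd-201: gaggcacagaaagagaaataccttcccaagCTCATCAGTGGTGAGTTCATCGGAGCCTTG
Ivd-205: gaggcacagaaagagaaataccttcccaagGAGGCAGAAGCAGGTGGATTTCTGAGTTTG
Ivd-206: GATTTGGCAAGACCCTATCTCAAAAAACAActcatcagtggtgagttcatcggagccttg

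The coding row Ivd-201 measured 37.8, 32.6 and 24.7 TPM in homozygous against 35.4, 23.3 and 24.2 TPM in WT muscle. The groups overlapped, and its log2 fold change was 0.20 (SE 0.23, limma adjusted p 0.654). Ivd-205 measured 12.2, 21.1 and 8.33 TPM against 5.73, 5.22 and 3.76 TPM. Ivd-206 measured 10.3, 10.8 and 10.3 TPM against 2.08, 7.25 and 4.12 TPM. In both short rows every homozygous library was above every WT library. Their log2 fold changes were 1.26 (SE 0.33, limma adjusted p 0.263) and 1.18 (SE 0.35, limma adjusted p 0.274). With the slow-fibre covariate that of Ivd-205 was 0.68 and that of Ivd-206 was 1.26.

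Ivd-207, a non-coding row of 1010 bases, measured 20.2, 17.9 and 16.1 TPM in homozygous against 15.3, 9.05 and 12.1 TPM in WT muscle, again without overlap (log2 fold change 0.55, SE 0.21, limma adjusted p 0.303). With the slow-fibre covariate the log2 fold change of Ivd-207 was 0.54. The retained-intron rows Ivd-203 and Ivd-204 overlapped between groups, at 0.670 to 5.35 and 2.39 to 8.32 TPM. The coding row made up 42.4%, 33.5% and 37.0% of Ivd TPM in homozygous against 52.8%, 43.4% and 49.0% in WT muscle. Each homozygous share was below each WT share, and the fraction of all genes with such an order of shares was not computed.

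Mccc1 (chr3:35959312-36000678, minus strand) measured 19.5, 17.2 and 14.6 TPM in homozygous against 17.2, 16.4 and 24.3 TPM in WT muscle. WT replicate 3 was the highest library, the opposite of its place in most of the other genes. In limma its log2 fold change was -0.15 (SE 0.19, adjusted p 0.590), and its sign turned when WT replicate 3 was left out (0.02) or when protein-coding isoforms alone were summed (0.35).

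One row held most of the Mccc1 TPM of WT replicate 3. Mccc1-208, a retained-intron row of 468 bases, is shown beside the coding form Mccc1-201 at the place where it joins the coding exons, on the minus strand of chromosome 3 (GRCm38, transcripts of GENCODE M21). The stretch lies in chr3:35960975-35963614 for Mccc1-201, a span including an intron, and in chr3:35960975-35961034 for Mccc1-208. Capitals mark bases that are not in the exons of the other isoform.
Mccc1-201: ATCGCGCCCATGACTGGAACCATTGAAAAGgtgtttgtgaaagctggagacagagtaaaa
Mccc1-208: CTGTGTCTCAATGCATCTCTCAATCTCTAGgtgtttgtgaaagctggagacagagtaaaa

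Mccc1-208 was listed at 0 in all 3 homozygous libraries and at 0.984, 4.46 and 13.8 TPM in the WT libraries. It did not reach the filter, so no test was made, and no fold is given against a group listed at 0. The coding row Mccc1-201 ran the other way, at 15.4, 13.5 and 11.7 TPM in homozygous against 13.7, 9.57 and 8.33 TPM in WT muscle, with overlap through WT replicate 1. The difference in log2(TPM + 1) was 0.35 (SE 0.21, limma adjusted p 0.424). Mccc1-205, annotated as a target of nonsense-mediated decay, measured 2.16, 2.32 and 1.65 TPM against 1.34, 1.27 and 1.32 TPM, without overlap (log2 fold change 0.39, SE 0.19, limma adjusted p 0.357). The coding row took 78.3% to 80.1% of Mccc1 TPM in homozygous muscle against 79.4%, 58.4% and 34.3% in WT muscle.

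**Figure D3:**
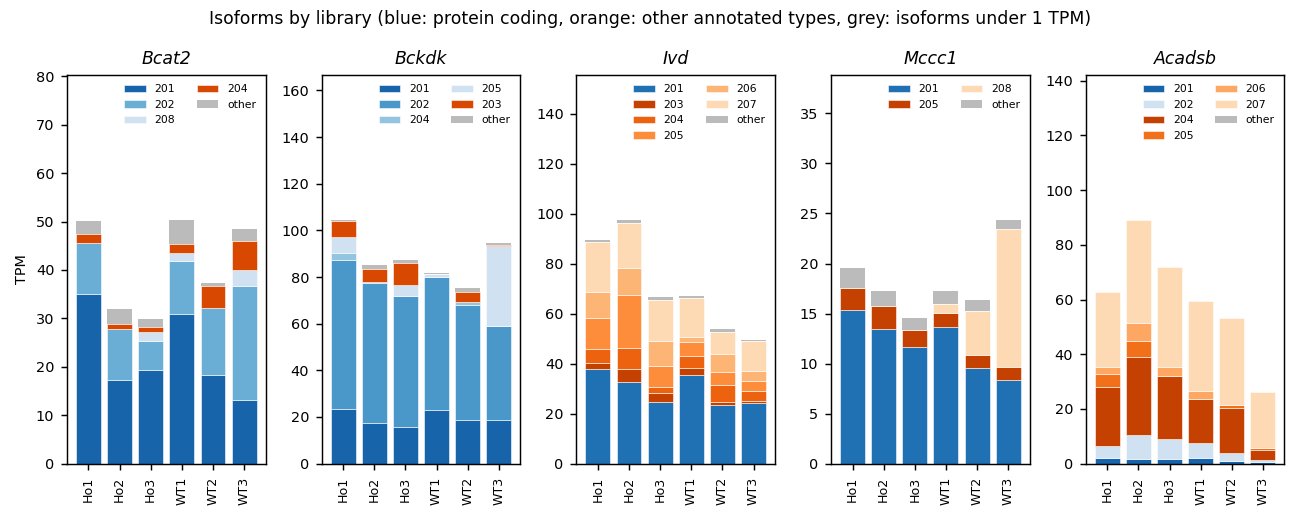
Isoforms of 5 genes by library (Ho, homozygous). Bar height is TPM, starting at 0; blue shades are protein-coding rows, orange shades other annotated types, and grey the isoforms with a mean under 1 TPM in both groups. WT replicate 3 holds 34.5 TPM of Bckdk-205 and 13.8 TPM of Mccc1-208, and the orange part of Ivd is taller in every homozygous library than in any WT library.

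In the valine and isoleucine branches, Hibch encodes the hydrolase that frees 3-hydroxyisobutyrate from its CoA ester in valine breakdown. Hibch (chr1:52844929-52920986, plus strand) measured 26.8, 28.6 and 26.4 TPM in homozygous against 24.4, 23.4 and 14.4 TPM in WT muscle. The groups did not overlap, and the homozygous libraries lay close together while WT replicate 3 stood well below the other WT libraries. Homozygous mice averaged 27.3 ± 1.20 TPM and WT mice 20.7 ± 5.50 TPM (mean ± SD, 3 libraries each). The fitted log2 difference was 0.41 (SE 0.20, limma adjusted p 0.237), 0.18 without WT replicate 3 and 0.05 with the slow-fibre covariate.

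Nearly all of Hibch lay in the coding row Hibch-201, at 25.7, 27.0 and 24.9 TPM in homozygous against 23.0, 23.1 and 14.2 TPM in WT muscle, again without overlap. Of its 7 isoform rows, 2 were listed at 0 in every library. The difference from WT replicates 1 and 2 was small beside the lower level of WT replicate 3. Its log2 fold change was 0.38 (SE 0.21, limma adjusted p 0.390), 0.16 without WT replicate 3 and 0.04 with the slow-fibre covariate.

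Acadsb encodes the short/branched chain acyl-CoA dehydrogenase, which oxidises the isoleucine product 2-methylbutyryl-CoA. Acadsb (chr7:131410601-131448944, plus strand) measured 62.7, 88.9 and 72.0 TPM in homozygous against 59.4, 53.2 and 26.1 TPM in WT muscle. The groups did not overlap, by a small margin between homozygous replicate 1 and WT replicate 1. Homozygous mice averaged 74.6 ± 13.3 TPM and WT mice 46.2 ± 17.7 TPM (mean ± SD, 3 libraries each). The log2 fold change was 0.75 (SE 0.30), the highest of the 10 genes and 0.48 above the all-gene median, with an unadjusted p of 0.0359 and an adjusted p of 0.190 in limma. It was 0.39 without WT replicate 3 and 0.08 with the slow-fibre covariate. Homozygous replicate 2 was the highest and WT replicate 3 the lowest library for Acadsb, as for Bckdhb, Ivd and Hibch but not the rest of the 10 genes. The slow-fibre sum was also highest and lowest in these libraries, and a link was not tested.

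Most Acadsb TPM was assigned to rows annotated as non-coding. The largest of these after the retained-intron row Acadsb-207 was Acadsb-204, a processed transcript of 600 bases of which 92.3% lies in coding sequence of the gene. Of the 2827 bases of Acadsb-207, 2691 lie in exons of coding isoforms of the gene and 136 in introns of Acadsb-202. The sequences below, from the GENCODE M21 transcripts, show where Acadsb-204 departs from the coding form Acadsb-202 on the plus strand (GRCm38). They start at chr7:131410758 and end at chr7:131424501 in Acadsb-202 and chr7:131424466 in Acadsb-204, each span including an intron. Capitals mark bases that are not in the exons of Acadsb-202.
Acadsb-202: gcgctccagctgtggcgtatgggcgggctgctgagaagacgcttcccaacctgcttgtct
Acadsb-204: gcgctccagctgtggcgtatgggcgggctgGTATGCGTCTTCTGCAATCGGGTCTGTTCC

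Acadsb-204 measured 21.5, 28.5 and 23.0 TPM in homozygous against 16.3, 16.6 and 3.92 TPM in WT muscle. All homozygous libraries were above all WT libraries, and the log2 fold change was 1.14 (SE 0.50, limma adjusted p 0.328), 0.53 without WT replicate 3 and 0.16 with the slow-fibre covariate. The retained-intron row Acadsb-207 measured 27.5, 37.4 and 36.7 TPM against 32.9, 31.6 and 20.2 TPM, with overlap. The coding row Acadsb-202 measured 4.56, 8.68 and 7.38 TPM against 5.51, 2.65 and 0.544 TPM, with overlap through homozygous replicate 1 and WT replicate 1. Its log2 fold change was 1.21 (SE 0.53, limma adjusted p 0.329).

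The other coding row, Acadsb-201, stayed between 0.678 and 1.98 TPM, and the retained-intron rows Acadsb-205 and Acadsb-206 were each listed at 0 in 2 libraries and overlapped between groups. Coding rows made up 10.4% to 12.6% of Acadsb TPM in homozygous against 12.5%, 7.06% and 4.68% in WT muscle. With coding rows only, the gene measured 6.54, 10.4 and 9.07 TPM against 7.41, 3.76 and 1.22 TPM. The groups then overlapped, and the log2 fold change was 1.10 (SE 0.43, limma adjusted p 0.182).

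Over the 60 isoform rows, 27 were annotated as protein coding and 3 were listed at 0 in every library. The filter of 1 TPM in at least 3 libraries kept 29, and since 3 is the size of a group, a row could pass it through the group where it was high. In limma, 0 of the 29 had an adjusted p under 0.05, against 0.0425% of all isoforms tested. The smallest adjusted p was 0.263, and at an unadjusted p under 0.05 there were 6 higher and 1 lower in homozygous muscle, against 14.2% and 1.52% of all isoforms tested. Of the 29, 7 had every homozygous above every WT library, against 25.6% of all isoforms tested, and 2, both of Bcat2, had the opposite order, against 2.11%.

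**Figure D4:**
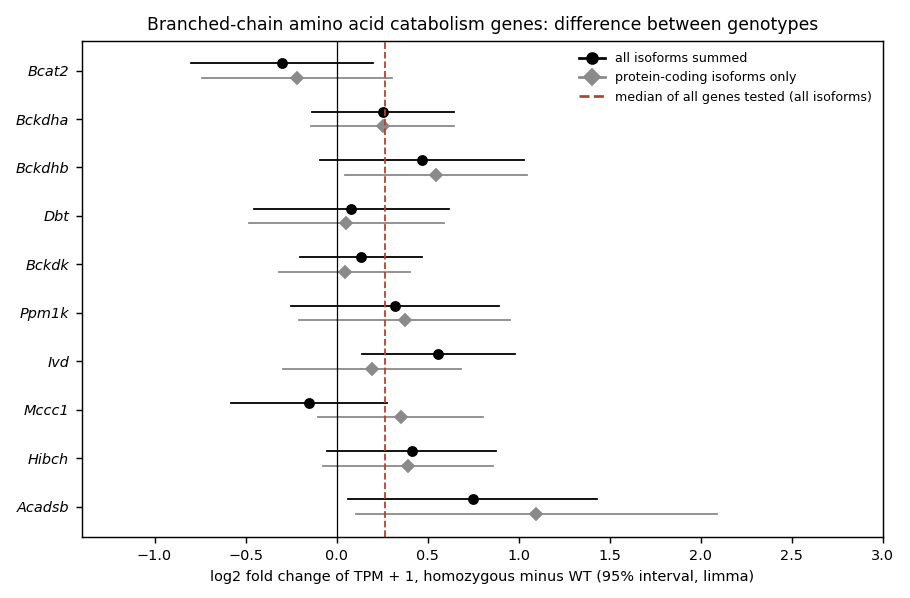
Log2 fold change of the 10 genes, homozygous minus WT, with all isoforms summed (black circles) and with protein-coding isoforms only (grey diamonds). The horizontal axis is the difference of log2(TPM + 1) from limma, bars are 95% intervals, and the dashed line is the median of all genes tested (0.26). Mccc1 moves from -0.15 to 0.35 and Ivd from 0.56 to 0.20 between the sums, and the signs of Bckdha, Dbt and Bckdk also change after median centring.

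The order of levels over all 6 libraries was Bckdha (mean 91.7 TPM), Bckdk (88.0), Ivd (70.6), Acadsb (60.4), Bcat2 (41.3), Hibch (24.0), Bckdhb (22.3), Mccc1 (18.2), Dbt (7.57) and Ppm1k (3.01). Bckdha was above Bckdk in 4 of 6 libraries, so these neighbours did not differ beyond their spread. In the pairs Bcat2 and Hibch, Mccc1 and Dbt, and Dbt and Ppm1k the first gene was higher in all 6 libraries, and in each of the other neighbouring pairs in 5 of 6. With protein-coding isoforms only, Acadsb moved from the fourth place to the ninth (6.41 TPM), just under Dbt (7.32 TPM), and Ivd had a mean of 29.7 TPM, below Bcat2 (37.7 TPM).

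The other genes of branched-chain amino acid transport and breakdown were also without a call. Of 29 such genes described here, 26 passed the filter, and 0 had an adjusted p under 0.05 in limma, with 6 at an unadjusted p under 0.05, all higher in homozygous muscle, against 23.7% of all genes tested. Slc7a5, Bcat1 and Abat did not pass the filter. The log2 fold change was above 0 for 23 of the 26 and the median was 0.29, beside 0.26 over all genes, and after median centring 10 of the 26 were above 0. Groups did not overlap for 7 genes, all higher in the homozygous libraries, where 34.7% of all genes tested showed that order. WT replicate 3 was the lowest library for 19 of the 29. With array weights, by which limma gives a library that stands apart less weight, 2 of the 26 and 0 of the 10 genes above had an adjusted p under 0.05, against 7.3% of all genes tested.

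Among transporters, Slc25a44, the mitochondrial branched-chain amino acid carrier, measured 10.7, 12.8 and 13.6 TPM in homozygous against 8.65, 9.01 and 6.27 TPM in WT muscle (log2 fold change 0.58, SE 0.17, limma adjusted p 0.168, and 0.34 with the slow-fibre covariate). Slc3a2, the heavy chain that partners amino acid exchangers at the cell surface, measured 19.6, 21.6 and 21.1 TPM against 17.7, 18.2 and 18.4 TPM. The groups did not overlap in either gene. The Slc3a2 difference was 0.19 on the log2 scale, less than the all-gene median, and -0.09 after quantile normalization. It was 0.17 with the slow-fibre covariate. Bcat1, the cytosolic aminotransferase, was between 0.00875 and 0.216 TPM in all libraries, beside 29.8 to 50.2 TPM for the mitochondrial form Bcat2.

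Dld, the E3 subunit that the complex shares with the pyruvate and 2-oxoglutarate dehydrogenases, measured 107, 101.2 and 101.1 TPM in homozygous against 78.2, 92.9 and 57.4 TPM in WT muscle. The homozygous values lay within a narrow range above all WT values. Its log2 fold change was 0.46 (SE 0.18, limma adjusted p 0.190), 0.27 without WT replicate 3 and 0.23 with the slow-fibre covariate.

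In the branches, groups were also apart for Acad8, the isobutyryl-CoA dehydrogenase of valine breakdown (log2 fold change 0.33), for Echs1, the short-chain enoyl-CoA hydratase (0.67), and for Pccb, a propionyl-CoA carboxylase subunit (0.30, and -0.0039 after median centring). Their limma adjusted p values were 0.178, 0.171 and 0.200. Echs1 measured 85.0, 110.5 and 93.2 TPM in homozygous against 84.2, 54.9 and 46.5 TPM in WT muscle, with WT replicate 1 almost at the lowest homozygous level, and its log2 fold change was 0.25 with the slow-fibre covariate. With that covariate the value was 0.34 for Acad8 and 0.23 for Pccb.

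Of the regulators, Klf15 measured 26.9, 28.8 and 21.9 TPM in homozygous against 25.6, 15.1 and 11.0 TPM in WT muscle. WT replicate 1 lay inside the homozygous range. On the log2 scale the groups differed by 0.63 (SE 0.27, limma adjusted p 0.208), 0.37 without WT replicate 3, 0.24 with array weights and 0.13 with the slow-fibre covariate. Ppara, a fatty-acid-activated nuclear receptor, measured 2.16, 3.95 and 4.69 TPM against 1.35, 1.93 and 0.363 TPM, without overlap (log2 fold change 1.08, SE 0.33, limma adjusted p 0.168). It was 0.77 without WT replicate 3 and 0.55 with the slow-fibre covariate.

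**Figure D5:**
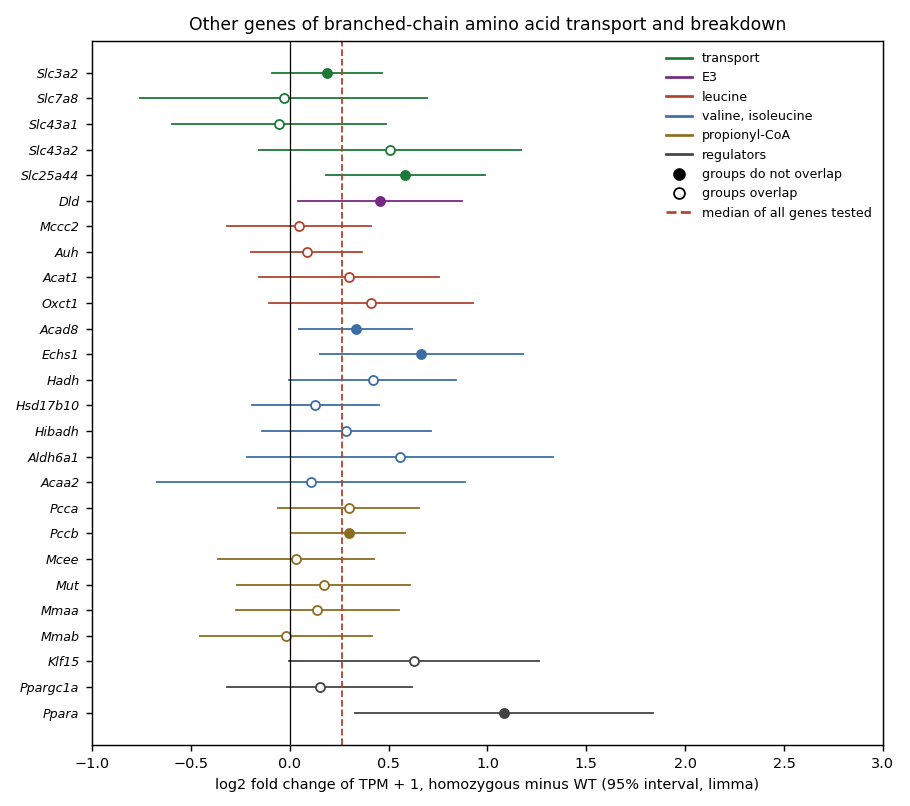
Log2 fold change, homozygous minus WT, of the 26 other genes of branched-chain amino acid transport, breakdown and regulation that were tested. The horizontal axis is the difference of log2(TPM + 1) from limma with 95% intervals, filled circles are genes whose groups do not overlap, and the dashed line is the median of all genes tested (0.26). Of the 26 genes 23 lie above 0 here, against 10 after median centring, and Slc3a2 and Pccb are among those whose sign changes.

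Promoter windows of 300 bases (RefSeq, GRCm38.p6) were found for 9 of the 10 genes, in 11 windows, and searched on both strands. The full glucocorticoid response element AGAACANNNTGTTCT was in 0 of the 11, as in all but 3 of the 32851 windows of the table. Its 6-letter part AGAACA, which overlaps the full element, was in 2 of the 11 windows (Bckdhb and Bckdk), against 19.0% of all windows. The letters CCACCC, a box bound by Klf-family factors, were in 4 of the 11 (Bcat2, Bckdhb, Ivd and Mccc1), against 31.5% of all windows. These are matches of letters in short windows and give no measure of binding.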

How the data were processed

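The authors deposited an isoform table in TPM, whose rows are Ensembl transcripts and whose columns are the 6 libraries, per the file headers. All 6 columns matched a library by name and 0 were left unmatched. The submitters' processing notes name FastQC, Trimmomatic, HISAT2, kallisto and mm10, without role or version, with the annotation release not given in the sources used here. How reads shared by isoforms were divided affects every isoform value.

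TPM were summed per gene. Features reaching 1 TPM in 3 libraries or more were transformed to log2(TPM + 1) and tested with limma 3.58.1 in R 4.3.3 (trend, robust, genotype as the only term, two-sided), with Benjamini-Hochberg adjustment over 11099 genes or 21165 isoforms and a threshold of 0.05. Fold changes on this scale understate changes of low genes. Within-library differences were tested with exact permutations (scipy 1.17.1). The limma test of gene sums was also tried on simulated data. Of 200 genes given a log2 change, it called 0% at a change of 0.5, 49.5% at 1 and 96.5% at 2. False calls numbered 0, 5 and 8. The simulated noise was independent between genes, and changes went up or down at random in genes with a mean log2(TPM + 1) above 2. The rates thus do not cover lower genes, isoform rows or the upward shift of most genes in the real data. Biotypes, positions and transcript sequences came from GENCODE M21 (GRCm38), which may differ from the annotation used for the table, and isoforms carry its transcript names.

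The genes, the lists and the rule for named genes were chosen with earlier results of these data known. Named were all 10 genes, their isoforms with a mean of at least 1 TPM in either group, genes of the wider list whose groups did not overlap, and Klf15, Bcat1, Dld and Nr3c1. One gene of the wider list is not reported here. The methylmalonyl-CoA mutase gene is listed as Mut. Genes on the opposite strand overlap some members, and B3gnt8, opposite Bckdha, measured 0.598 to 1.92 TPM. The kit marks strand, but whether quantification used it was not stated. Alternatives were quantile normalization, median centring, no filter, a pseudocount of 0.1, leaving out each library, a replicate block, array weights, a slow-fibre score as covariate and leaving out mitochondrial transcripts. Summing protein-coding isoforms only was added after seeing the data.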

Additional observations from a re-analysis of the deposited data

How the results depend on the processing

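No member gene and no member isoform passed the threshold under any alternative run, leaving out each library included (0 to 0 for genes, isoforms and the wider list); array weights, which gave WT replicate 3 a weight of 0.199, called 2 genes of the wider list, Ppara (adjusted p 0.0432) and Slc25a44 (0.0461), of 26, where 7.3% of all genes tested were called in that fit. Same-numbered libraries correlated at -0.07, 0.06 and -0.01 in their deviations from the group means, within the range of other pairs (-0.14 to 0.13). With 3 libraries per group this cannot exclude a pairing by replicate number. With a replicate block 0 member genes, 0 isoforms and 0 wider genes were called. The kinase minus phosphatase difference was 0.42 with the slow-fibre covariate, and -0.45 to 0.11 with a library left out. The Bckdha minus Bckdhb difference was 0.21 with that covariate and -0.44 to 0.00027 with a library left out; WT replicate 3 gave the upper value of both. Bcat2 minus the complex kept its sign, at -0.77 to -0.35 with a library left out and -0.11 with the covariate. The median of the 10 genes relative to all genes was 0.02, and -0.11 to 0.18 over all alternatives. Log2 fold changes reversed for Dbt under quantile normalization (-0.23), median centring (-0.22), array weights (-0.22) and the slow-fibre covariate (-0.16), with a range of -0.12 to 0.26 when libraries were left out and the lower end (-0.074 without homozygous replicate 1, -0.12 without WT replicate 3) below 0. They reversed for Bckdha (-0.047), Bckdk (-0.17), Slc3a2 (-0.11) and Pccb (-0.0039) under median centring, for Bckdk (-0.065) and Slc3a2 (-0.095) under quantile normalization, and for Bckdhb (-0.059), Ppm1k (-0.098) and Mccc1 (0.082) with the slow-fibre covariate. Mccc1 also reversed with protein-coding isoforms only (0.35), and gave -0.25 to 0.016 (without WT replicate 3) with a library left out. The causes were not tested. Array weights were not run for the within-library differences. With 3 libraries per group no exact p can be below 0.1, and TPM gives no depth, so the precision of low isoforms is unknown.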
